A study of Mus musculus with 6 samples.

Results

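This account concerns 37 mouse genes of glycolysis and of the response to low oxygen, measured on 6 arrays of BV-2 cells. They were chosen by name: enzymes and transporters of glucose breakdown, the hypoxia-inducible factor gene Hif1a, and genes known as targets of that factor. For each gene the row of the deposited table that names that gene alone was used, and where a gene had several such rows, the one with the highest mean over the 6 arrays. Ankrd37 was read from a row that it shares with Lrp2bp. This gave 34 of the 37 genes, among 22180 genes named by a row of their own and 41345 rows in all. Gpi1, Aldoa and Eno1 have no values here, as no row names Gpi1 or Eno1 and the row of Aldoa also names Aldoart1. The mean over arrays chose the row. The list, and the choice to look at 2 arrays apart, were made with results of these data known, so values are given as a description unless a test is named.

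BV-2 is a mouse microglial line immortalised with a retrovirus carrying raf and myc oncogenes. The series set 3 arrays of resting control cells against 3 arrays of cells given lipopolysaccharide (LPS) of Escherichia coli O111:B4, at 1 µg/mL for 24 h. All cells grew in medium with 4500 mg/L glucose and were plated for the experiment in 2.5% serum. The labels used here state no collection time for the controls. Replicate numbers 1 to 3 are given in both groups, with no word on whether the cultures were independent. The p-values therefore reflect only array-to-array spread, part of which may be technical. As a bulk measurement, each value is a mean over all cells of a culture, in which fewer expressing cells and less RNA per cell cannot be told apart.

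Glycolysis splits glucose to pyruvate in the cytosol, and lactate dehydrogenase turns pyruvate into lactate, which leaves the cell with a proton. Hypoxia-inducible factor (HIF) is a transcription factor whose alpha subunit is hydroxylated and destroyed when oxygen is at hand. When oxygen falls, or when inflammatory signals or metabolites stabilise it, the factor raises glucose transporters, most glycolytic enzymes, and genes that limit mitochondrial work. Macrophages given LPS are known to shift towards glycolysis, with HIF as one of the regulators.

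HIF binds a short core in DNA, ACGTG or GCGTG, so promoters are shown first: those of 5 of the 6 genes that lay at least 1 log2 unit low in the same 2 arrays and that of Ankrd37, which showed another pattern. They are the 250 bases before the RefSeq start site (GRCm38.p6), 5′ to 3′ on the strand of the gene. Capitals mark each ACGTG or GCGTG on either strand (CACGT and CACGC are the same letters read on the other strand).
Ddit4, chr10:59951771-59952020, minus strand: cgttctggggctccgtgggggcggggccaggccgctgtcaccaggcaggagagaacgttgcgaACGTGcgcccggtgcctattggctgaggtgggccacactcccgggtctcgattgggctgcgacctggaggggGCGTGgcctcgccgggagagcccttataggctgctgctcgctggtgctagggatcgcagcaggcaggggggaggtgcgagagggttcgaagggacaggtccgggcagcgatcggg
Hilpda, chr6:29272376-29272625, plus strand: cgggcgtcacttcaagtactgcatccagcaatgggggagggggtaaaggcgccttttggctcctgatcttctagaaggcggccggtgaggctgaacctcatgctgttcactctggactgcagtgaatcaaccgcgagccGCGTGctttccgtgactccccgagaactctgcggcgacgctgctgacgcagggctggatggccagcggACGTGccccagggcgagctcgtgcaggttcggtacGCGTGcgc
Fam162a, chr16:36071562-36071811, minus strand: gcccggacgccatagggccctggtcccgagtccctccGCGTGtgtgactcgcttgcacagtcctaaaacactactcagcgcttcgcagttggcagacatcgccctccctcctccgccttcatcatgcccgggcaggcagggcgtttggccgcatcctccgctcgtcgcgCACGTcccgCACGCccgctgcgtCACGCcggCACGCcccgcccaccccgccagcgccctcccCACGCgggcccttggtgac
Bnip3, chr7:138909507-138909756, minus strand: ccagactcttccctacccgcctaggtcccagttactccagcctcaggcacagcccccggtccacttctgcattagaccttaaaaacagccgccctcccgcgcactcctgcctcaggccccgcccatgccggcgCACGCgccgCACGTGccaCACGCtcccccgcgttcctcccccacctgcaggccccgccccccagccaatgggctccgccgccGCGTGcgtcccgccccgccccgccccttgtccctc
Egln3, chr12:54203875-54204124, minus strand: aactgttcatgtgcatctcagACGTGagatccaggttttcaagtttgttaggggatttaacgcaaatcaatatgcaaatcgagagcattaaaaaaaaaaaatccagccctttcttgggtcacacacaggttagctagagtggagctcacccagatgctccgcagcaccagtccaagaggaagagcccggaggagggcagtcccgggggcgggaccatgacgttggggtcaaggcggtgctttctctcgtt
Ankrd37, chr8:45999851-46000100, minus strand: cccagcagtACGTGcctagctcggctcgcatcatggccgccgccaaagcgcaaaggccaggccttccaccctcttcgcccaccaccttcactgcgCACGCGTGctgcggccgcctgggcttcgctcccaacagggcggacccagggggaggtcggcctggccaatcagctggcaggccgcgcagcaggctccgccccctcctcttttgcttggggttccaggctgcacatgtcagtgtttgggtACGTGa
The core stood at 2 places in the window of Ddit4, 3 in that of Hilpda, 6 in that of Fam162a, 4 in those of Bnip3 and Ankrd37, and 1 in that of Egln3. Hilpda has an upstream start whose window held none. In Bnip3 one place is the palindrome CACGTG, the E-box read by MYC and other factors, counted as 1 place; 6.02% of all windows held that palindrome. RefSeq windows were found for 32 of the 34 genes, all but Slc2a3 and Ndrg1, and 31 of the 32 held the core in at least 1 window, against 41.5% of all 27025 genes. At least 2 places in a window were found for 22 of the 32, against 15.5% of all genes. Many of these genes were listed because they are known HIF targets, so this share describes the list. A match of letters does not show that the factor was bound.

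The values are log2 expression per row, as deposited. As a guide to background, 1458 rows named for olfactory, vomeronasal, taste and trace amine receptors had a 95th percentile of 3.08, and rows above that are called brighter rows here (19121 rows). All 34 genes had a mean above it, with P4ha2 just above at 3.09. As a check of the agent, Acod1, Il1b and Tnf rose by 6.60, 5.43 and 2.71 log2 units (limma adjusted p = 0.00123, 0.00731 and 0.0444), while Nos2 had a difference of 3.17 (adjusted p = 0.0791). The 9 microglia and macrophage markers were all above the background guide, with Aif1 and Cx3cr1 at means of 3.97 and 3.70. Of 24 markers of astrocytes, neurons, oligodendrocytes, endothelium and fibroblasts, 3 were above it, Rbfox3 and Col1a2 by little and Kdr clearly, at 8.56 to 9.20. Upper quartiles of the arrays lay between 4.85 in control replicate 2 and 5.27 in LPS replicate 3.

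For 29 of the 34 genes the SD of the 3 controls was larger than the difference between LPS and control. The share of all rows for which this held was not taken, so the count describes these genes alone. In control replicate 2, 30 of the 34 genes lay below both other controls, and in LPS replicate 3, 23 lay below both other LPS arrays; 22 did both. Over brighter rows these shares were 59.7%, 27.4% and 21.3%. Relative to the mean of the others of its group, the median gene stood at -1.11 log2 units in control replicate 2 and at -0.34 in LPS replicate 3, against -0.26 and 0.13 over brighter rows. Control replicate 2 was low for bright rows in general, so the counts were also set beside rows of like level. Control replicate 2 was the lowest control for 7 of 9 genes with a mean of 5 to 7, against 69% of rows. From 7 to 9 it was 13 of 13 against 81.1%, and from 9 to 13 it was 7 of 7 against 69.8%. In the same order, LPS replicate 3 was the lowest LPS array for 6 of 9, 8 of 13 and 6 of 7 genes. The shares of rows were 27.4%, 36.9% and 43.9%. Among genes with a mean of 7 to 9, 8 of 13 were lowest in both arrays, against 33.8% of rows of that level. From 9 to 13 it was 6 of 7 against 39.2%, and from 5 to 7 it was 5 of 9 against 23.2%. Ddit4, Pfkfb3, Pfkfb4, Higd1a and P4ha2 had lower means and are in none of these levels. After each array was centred on its brighter rows, 27 of the 34 genes were lowest in both arrays (29.0% of brighter rows), and 23 after quantile normalization (25.9%).

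**Figure D1:**
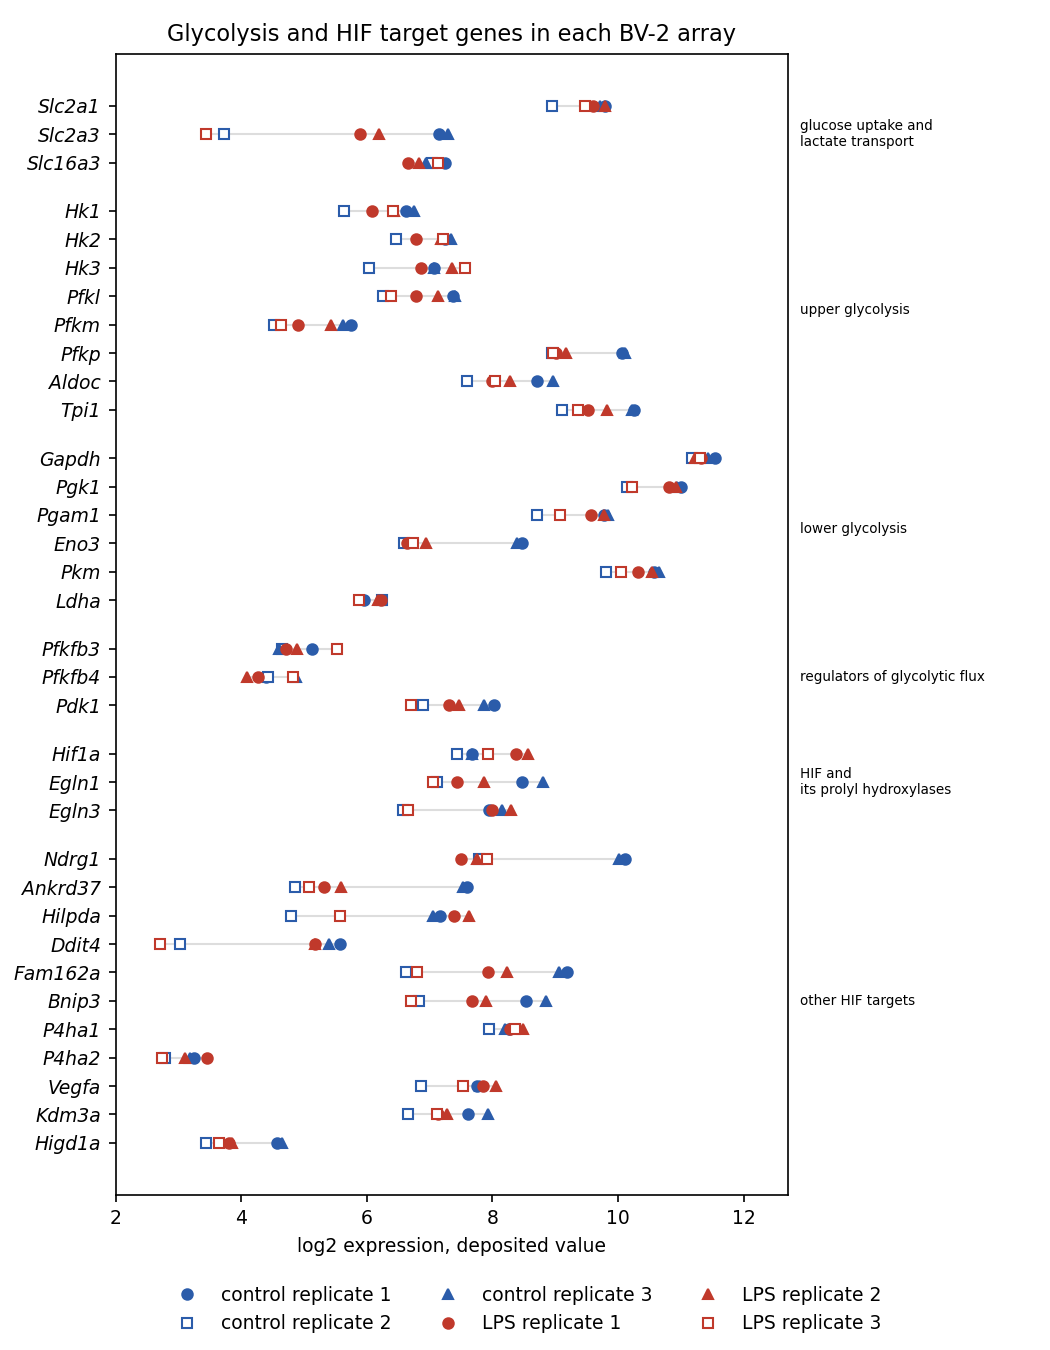
Deposited log2 values of the 34 genes (rows, grouped by role) on the horizontal axis, 1 point per array, blue for control and red for LPS, with open squares for control replicate 2 and LPS replicate 3. For Slc2a3, Ddit4, Hilpda, Fam162a, Bnip3 and Egln3 both open squares lie to the left of all 4 filled points, while for Ndrg1, Ankrd37 and Eno3 the open blue square lies among or beside the red points.

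For 6 genes both arrays lay at least 1 log2 unit below the mean of the others of their group: Slc2a3, Egln3, Hilpda, Ddit4, Fam162a and Bnip3. Among brighter rows 0.654% did so. By level, both arrays were that low for 3 of 13 genes with a mean of 7 to 9, against 0.745% of rows. It was 2 of 9 with a mean of 5 to 7 against 0.992%, and 0 of 7 with a mean of 9 to 13 against 0.394%. Ddit4, with a mean of 4.51, is in none of these levels. Quantile normalization left 5 of the 34 (0.732% of brighter rows), and centring on brighter rows 6 (0.988%). Control replicate 2 alone lay that low for 21 of the 34 genes, against 10.6% of brighter rows. With a mean of 5 to 7 it was 7 of 9 genes against 14.05% of rows. From 7 to 9 it was 9 of 13 against 20.23%, and from 9 to 13 it was 3 of 7 against 15.37%. The count fell to 10 after quantile normalization and 11 after centring on brighter rows, where the share of rows was not taken.

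Glucose enters through Slc2a1 and Slc2a3, which code for the transporters GLUT1 and GLUT3, and lactate leaves through Slc16a3, which codes for MCT4. Slc2a3 had the widest range of the 34 genes. It stood at 7.15, 3.72 and 7.30 in control replicates 1 to 3 and at 5.90, 6.20 and 3.44 in LPS replicates 1 to 3. Control replicate 2 and LPS replicate 3 thus lay near the background guide and the other 4 arrays clearly above it, with LPS replicates 1 and 2 under control replicates 1 and 3. The group means were 6.06 ± 2.02 and 5.18 ± 1.51 (SD, n = 3), and the difference of -0.87 had a standard error (SE) of 1.13 (limma adjusted p = 0.996). Slc2a1 ran from 8.95 in control replicate 2 to 9.80 in LPS replicate 2, with 9.79 and 9.71 in the other controls and 9.60 and 9.47 in the other LPS arrays. Slc16a3 read 7.24, 7.04 and 6.94 in controls and 6.66, 6.84 and 7.14 under LPS, a span in which the groups overlapped and neither of those 2 arrays was the lowest.

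The first steps of glycolysis trap and split the sugar. Hexokinases 1 to 3 phosphorylate glucose, the 3 phosphofructokinases Pfkl, Pfkm and Pfkp commit it, aldolase (here Aldoc) cleaves it and Tpi1 interconverts the products. All 8 measured genes of this stretch lay lower in control replicate 2, from -0.83 for Hk2 to -1.24 for Aldoc relative to the other controls. Under LPS the 3 hexokinases read higher in replicate 3 than the mean of the others (0.15 for Hk1, 0.23 for Hk2 and 0.45 for Hk3), and the other 5 read lower, down to -0.57 for Pfkl. In Pfkp control replicates 1 and 3 stood apart from the rest. Its values were 10.07, 8.96 and 10.11 in controls and 9.02, 9.17 and 8.96 under LPS. Control replicate 2 sat with the LPS arrays. Its difference was -0.66 (SE 0.32, adjusted p = 0.857), and -0.99 (SE 0.17, adjusted p = 0.107) without control replicate 2 and LPS replicate 3. Hk3, a hexokinase found mainly in blood and myeloid cells, read 7.07, 6.03 and 7.08 in controls and 6.87, 7.36 and 7.56 under LPS, a difference of 0.54 (SE 0.33, adjusted p = 0.945) that became 0.04 without those 2 arrays.

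The lower steps yield ATP and pyruvate: Gapdh oxidises the triose, Pgk1 and Pkm (pyruvate kinase) make ATP, Pgam1 and the enolases shift the phosphate and remove water, and Ldha makes lactate. Eno3, the enolase best known from muscle, differed most. It read 8.47, 6.59 and 8.40 in controls and 6.64, 6.94 and 6.74 under LPS. Here too control replicate 2 lay with the LPS arrays, whose own spread was narrow at 6.77 ± 0.15 (SD, n = 3). The difference was -1.04 (SE 0.49, adjusted p = 0.851) over all arrays. Without control replicate 2 it was -1.66 (SE 0.16, limma adjusted p = 0.0387). That array was set apart with results of these data known, so this p rests on that choice.

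Pgk1, Pgam1 and Pkm stood at -0.83, -1.09 and -0.80 in control replicate 2 relative to the other controls, and at -0.63, -0.59 and -0.38 in LPS replicate 3 relative to the other LPS arrays. Pgk1, for example, stood at 11.00, 10.15 and 10.94 in controls and 10.81, 10.92 and 10.23 under LPS. Gapdh, often used as a loading reference, ran from 11.18 in control replicate 2 to 11.54 in control replicate 1, with LPS arrays at 11.33, 11.23 and 11.31. The probes of Gapdh and Pgam1 may also catch near-identical copies: 8 further rows name Gapdh with other genes, and both genes have further rows of their own. Ldha was an exception, at 5.96, 6.24 and 6.23 in controls and 6.23, 6.17 and 5.88 under LPS, and was the only one of the 34 genes that read above the mean of the other controls in control replicate 2.

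Pfkfb3 and Pfkfb4 make fructose 2,6-bisphosphate, the activator of phosphofructokinase, and Pdk1 blocks pyruvate dehydrogenase and so keeps pyruvate out of the mitochondria. Pdk1 followed the common pattern with 8.03, 6.89 and 7.86 in controls and 7.31, 7.46 and 6.71 under LPS, both of the low arrays at the bottom of their groups. Pfkfb3 did not: LPS replicate 3 had its highest value, 5.53, and control replicates 1 to 3 had 5.13, 4.66 and 4.60, against 4.71 and 4.89 in the other LPS arrays. Pfkfb4 ran from 4.09 in LPS replicate 2 to 4.87 in control replicate 3, with the groups interleaved.

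Hif1a itself was the gene with the lowest p for a higher value under LPS. It read 7.67, 7.44 and 7.68 in controls and 8.38, 8.57 and 7.94 under LPS, so that every LPS array lay above every control, with LPS replicate 3 nearest to them. The means were 7.60 ± 0.13 and 8.29 ± 0.32 (SD, n = 3). The difference of 0.70 (SE 0.20, 1.62-fold) did not pass over all rows (limma adjusted p = 0.479, and from 0.166 to 1 over the alternatives), and it was 0.80 without control replicate 2 and LPS replicate 3. A further row of Hif1a, near the background guide, had a difference of -0.24 (SE 0.28), and the mean of both rows one of 0.23. P4ha1, a collagen prolyl hydroxylase subunit, was the other gene whose LPS arrays lay wholly above controls. Its group means differed by 0.24 (SE 0.15), and its lowest LPS array, at 8.28, lay just above its highest control, at 8.26. Hif1a and P4ha1 were 2 of 34 with LPS arrays wholly above controls, against 7.74% of all rows and 12.04% of brighter rows. At a mean of 7 to 9 it was 2 of 13 genes against 14.96% of rows. Wholly below lay 0 of 34, against 3.48% of all rows and 2.265% of brighter rows.

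Egln1 and Egln3 code for the prolyl hydroxylases PHD2 and PHD3, which mark the HIF alpha subunit for destruction and are themselves HIF targets. Egln3 stood at 7.95, 6.58 and 8.15 in controls and at 8.00, 8.30 and 6.65 under LPS. Control replicate 2 and LPS replicate 3 were low and alike, the 4 other arrays were high and alike, and the LPS difference was 0.09 (SE 0.56). Egln1 read 8.47, 7.12 and 8.81 in controls and 7.44, 7.87 and 7.06 under LPS. Here LPS replicates 1 and 2 also lay below control replicates 1 and 3. The Egln1 difference was -0.68 over all arrays (SE 0.45, limma adjusted p = 0.966). Without control replicate 2 and LPS replicate 3 it was -0.98 (SE 0.23, adjusted p = 0.193).

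The remaining 11 HIF targets act outside glycolysis. Ddit4 (REDD1) inhibits mTORC1, Hilpda binds the lipase ATGL and favours lipid droplets, and Fam162a and Bnip3 act at mitochondria, Bnip3 as a mitophagy receptor. Ddit4 stood at 5.58, 3.02 and 5.40 in controls and 5.18, 5.18 and 2.70 under LPS. The 2 low arrays lay below the background guide and the other 4 lay close together, whatever the treatment. Hilpda read 7.17, 4.79 and 7.06 in controls and 7.38, 7.63 and 5.58 under LPS, so the same 2 arrays were low and the other 4 close together. The LPS difference was -0.31 for Ddit4 (SE 0.91) and 0.52 for Hilpda (SE 0.79).

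Fam162a and Bnip3 showed steps between arrays and between groups. Fam162a read 9.19, 6.62 and 9.06 in controls and 7.93, 8.24 and 6.80 under LPS. Bnip3 read 8.53, 6.84 and 8.85 in controls and 7.67, 7.89 and 6.71 under LPS. In both genes LPS replicates 1 and 2 lay between control replicates 1 and 3 above and the 2 low arrays beneath. Without the 2 low arrays the LPS difference was -1.04 for Fam162a (SE 0.19, adjusted p = 0.119) and -0.91 for Bnip3 (SE 0.20, adjusted p = 0.172).

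Ndrg1, a stress-responsive gene strongly raised by hypoxia, and Ankrd37, an ankyrin-repeat gene known mainly as a HIF target, showed the other pattern. Ndrg1 stood at 10.11, 7.78 and 10.01 in controls and 7.49, 7.75 and 7.92 under LPS. Control replicate 2 lay inside the range of the LPS arrays, and control replicates 1 and 3 stood more than 2 log2 units above all others. A further row of Ndrg1 gave 7.29, 4.53 and 7.22 in controls and 4.31, 4.12 and 3.96 under LPS. There too control replicates 1 and 3 stood far above the rest, but control replicate 2 lay just above all LPS arrays. Ankrd37 read 7.59, 4.85 and 7.54 in controls and 5.32, 5.59 and 5.09 under LPS, with control replicate 2 the lowest of all. The differences over all arrays were -1.58 for Ndrg1 (SE 0.61, adjusted p = 0.715) and -1.33 for Ankrd37 (SE 0.72, adjusted p = 0.902).

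**Figure D2:**
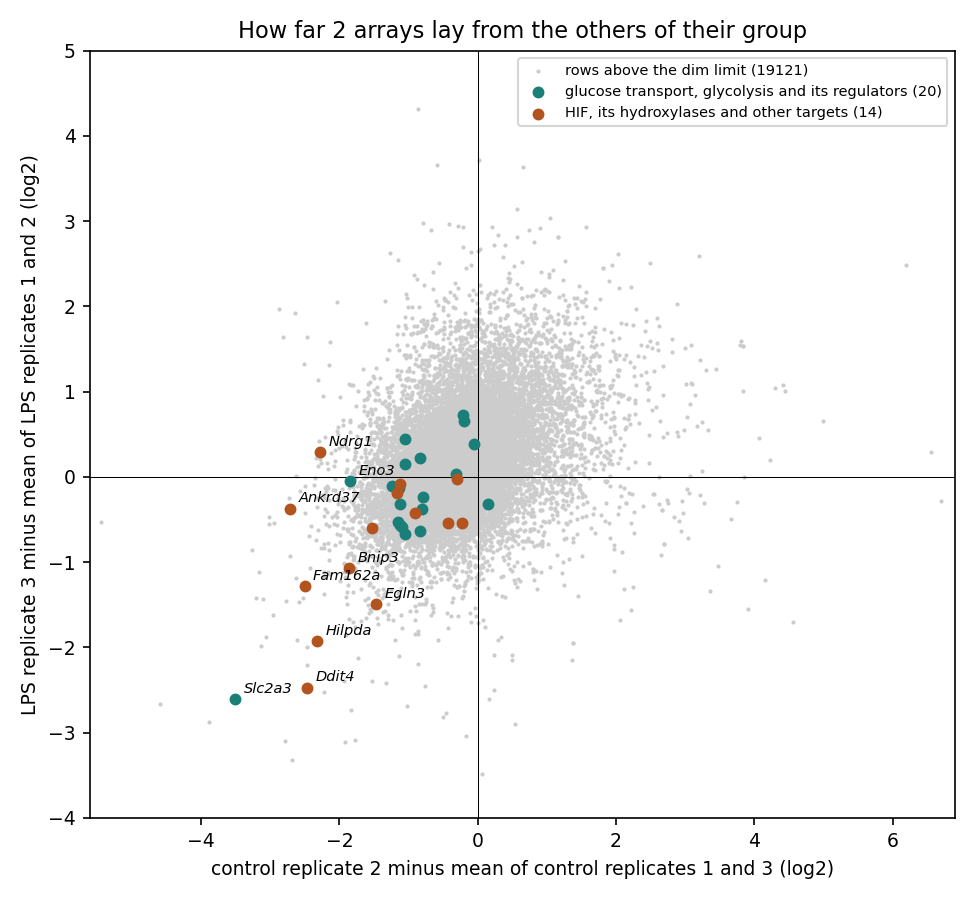
Each point is a row: the horizontal axis gives control replicate 2 minus the mean of the other controls and the vertical axis LPS replicate 3 minus the mean of the other LPS arrays, in log2 units, grey for the 19121 brighter rows, green for 20 glucose transport and glycolysis genes and orange for 14 HIF genes. Slc2a3, at -3.50 and -2.61, and Ddit4, at -2.47 and -2.47, lie farthest towards the lower left among the 34 genes, while Ndrg1 lies at -2.28 and 0.29.

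Of the last 5, Vegfa, the vascular growth factor, and the histone demethylase Kdm3a had control replicate 2 as their lowest array, at 6.87 and 6.65, with the other 5 arrays between 7.53 and 8.06 for Vegfa and between 7.12 and 7.93 for Kdm3a. Higd1a, a mitochondrial protein that tunes the respiratory chain, read 4.57, 3.44 and 4.66 in controls and 3.81, 3.86 and 3.64 under LPS, again with control replicates 1 and 3 above all others. P4ha1 stayed between 7.94 and 8.50. P4ha2, its sister subunit, ran from 2.74 to 3.46, around the background guide, so differences in it are not read.

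For LPS against control, limma was fitted to all 41345 rows. None of the 34 genes passed adjusted p under 0.05 in either direction, where 0.193% of rows were called higher and 0% lower. At an unadjusted p under 0.05, Hif1a was higher (1 of 34, against 4.98% of rows) and Ndrg1 lower (1 of 34, against 1.4%). The median difference over the 34 genes was -0.19, against 0.03 over all rows and 0.11 over brighter rows, with 11 genes above 0 and 23 below. Slc2a1, Hk2, Pgam1, Egln3 and P4ha2, all with differences of at most 0.14 above 0, took the other sign under at least 1 of the other scalings.

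With control replicate 2 left out, 3 genes were lower under LPS, Ndrg1, Ankrd37 and Eno3, where 0.0339% of rows were called lower and 0.128% higher. The differences were -2.34 for Ndrg1 (SE 0.18, limma adjusted p = 0.0192), -2.23 for Ankrd37 (SE 0.19, adjusted p = 0.0275) and -1.66 for Eno3. At an unadjusted p under 0.05, 15 genes were lower and 1 higher, against 3.98% and 4.98% of rows. With LPS replicate 3 left out as well, the same 3 genes were called, at -2.44, -2.11 and -1.64 (adjusted p = 0.0127, 0.0191 and 0.0393), where 0.162% of rows were called lower and 0.368% higher. In that fit the median of the 34 genes was -0.38, against -0.02 over all rows. At an unadjusted p under 0.05, 13 genes were lower and 1 higher, against 5.73% and 5.47% of rows. These calls rest on leaving out an array that is itself as low as the LPS arrays: LPS replicate 3 minus control replicate 2 was 0.14 for Ndrg1, 0.23 for Ankrd37 and 0.15 for Eno3.

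**Figure D3:**
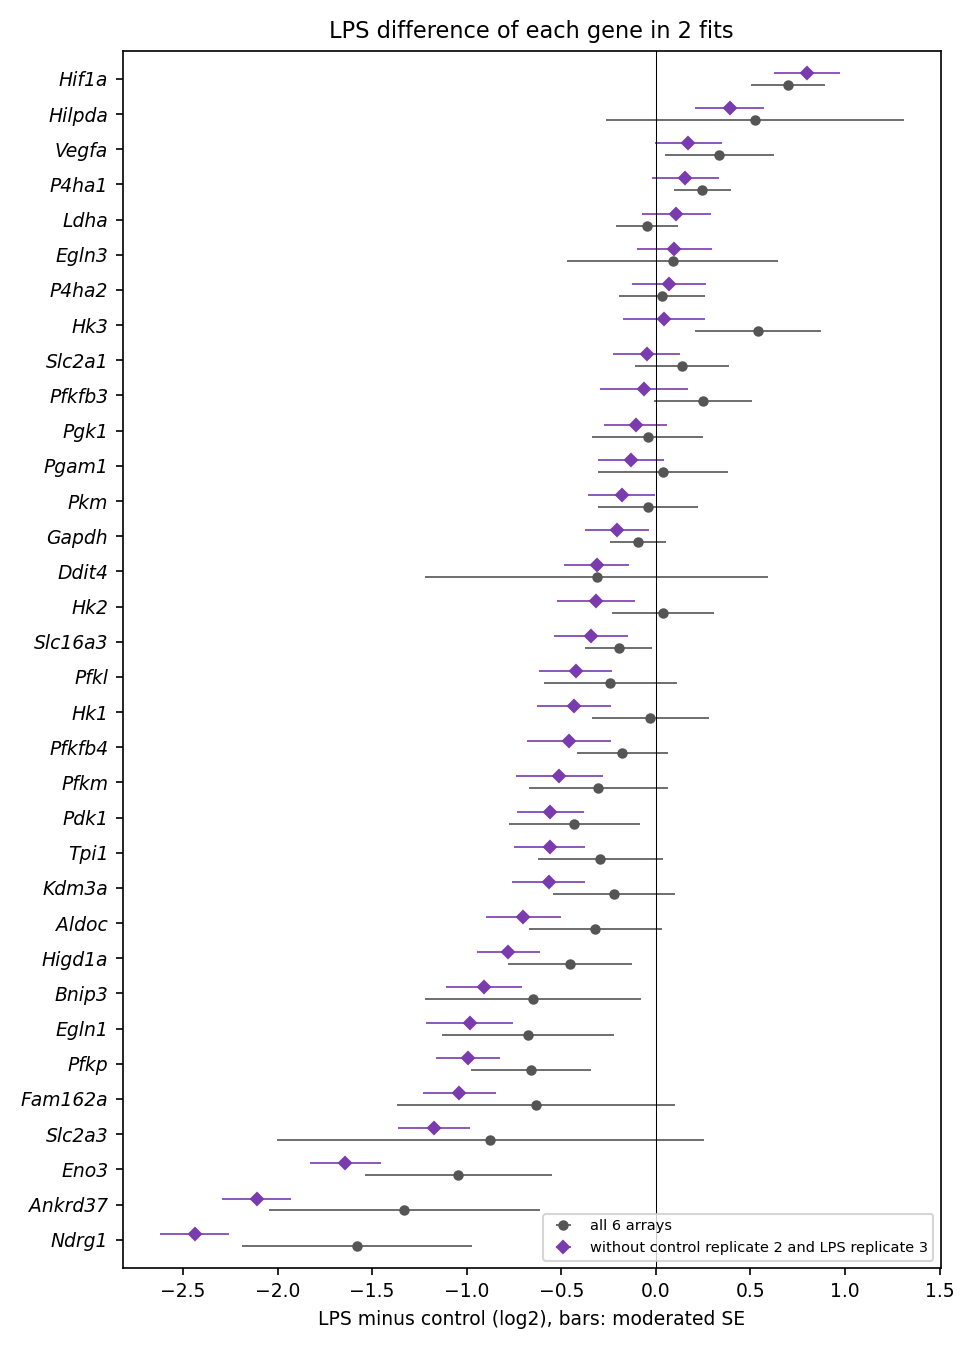
Differences between LPS and control in log2 units for the 34 genes, ordered by the second fit, from all 6 arrays (grey circles) and without control replicate 2 and LPS replicate 3 (purple diamonds), with moderated standard errors as bars. Ndrg1, Ankrd37 and Eno3 lie at the lower end of the second fit, at -2.44, -2.11 and -1.64, and Hif1a at the upper end, at 0.80.

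Other genes of these pathways were read from further lists. None of 42 other HIF targets with a row, 18 other glycolysis and glucose transport genes, 16 genes of the HIF subunits and oxygen-sensing machinery, 7 of the pentose phosphate branch, 12 of pyruvate entry into mitochondria or 19 of the tricarboxylic acid cycle was called over all arrays. At an unadjusted p under 0.05, 4 of the other HIF targets were higher and 3 lower, and in the remaining lists, in that order, 3, 3, 2, 1 and 1 were higher and 0 lower. Over all rows 4.98% were higher and 1.4% lower at that threshold, and the counts of 1 of 19 and 1 of 12 are near that share. Their 2 members with the highest mean were Ero1a and P4hb for the HIF targets, Bsg and Slc16a1 for glycolysis, Cited2 and Elob for oxygen sensing, Pgd and Taldo1, Dld and Mpc1, and Idh3g and Mdh2. Taldo1, the transaldolase of the pentose phosphate branch, had a difference of 1.03 (SE 0.25, adjusted p = 0.353) and Pgd one of 0.70 (SE 0.26, adjusted p = 0.70). Ero1a, an oxidase of the endoplasmic reticulum raised by HIF, had one of 0.44. It read 10.07, 8.70 and 10.28 in controls and 10.54, 10.69 and 9.14 under LPS, low in the same 2 arrays as Egln3. The other 9 of these genes had differences from -0.21 to 0.44. Genes named by their mean do not show the range of a list. Differences ran from -1.83 to 1.21 over the other HIF targets and from -0.24 to 1.27 over the other glycolysis genes.

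No test was run of a difference between lists in the 2 low arrays. Both arrays were the lowest of their group for 22 of 42 other HIF targets and 15 of 19 genes of the tricarboxylic acid cycle, for 5 of 12 genes of pyruvate entry, 6 of 18 other glycolysis genes, 4 of 16 genes of oxygen sensing, 1 of 7 genes of the pentose phosphate branch and 0 of 9 microglia markers, against 21.3% of brighter rows. These lists were not matched to rows of like level, where the share ran from 23.2% (mean of 5 to 7) to 39.2% (9 to 13). Above the background guide were 32 of the 42 HIF targets and 13 of the 18 glycolysis genes. So were 15 of the 16 oxygen-sensing genes and 10 of the 12 of pyruvate entry. A gap of at least 1 log2 unit in both arrays was seen for 2 of the 42 other HIF targets, Ero1a and Selenbp1. It was seen for 0 of 19 genes in the tricarboxylic acid cycle. The median tricarboxylic acid cycle gene lay -0.92 and -0.26 from the other arrays of its group, and the median of the 11 HIF targets among the 34 genes -1.85 and -0.42. Microglia markers had medians of -0.29 in control replicate 2 and 0.58 in LPS replicate 3, opposite in sign. Nos2, which is also a HIF target, was low in the same 2 arrays. It read 5.24, 4.29 and 5.53 in controls and 8.52, 8.62 and 7.42 under LPS. All 4 genes of the agent check lay at least 1 log2 unit low in control replicate 2, so this was not particular to Nos2. Both arrays were the lowest of their group for 2 of those 4, and both were at least 1 log2 unit low for 1. The upper quartile of all rows was lowest in control replicate 2 but highest in LPS replicate 3, and its part in these differences between arrays was not tested.

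**Figure D4:**
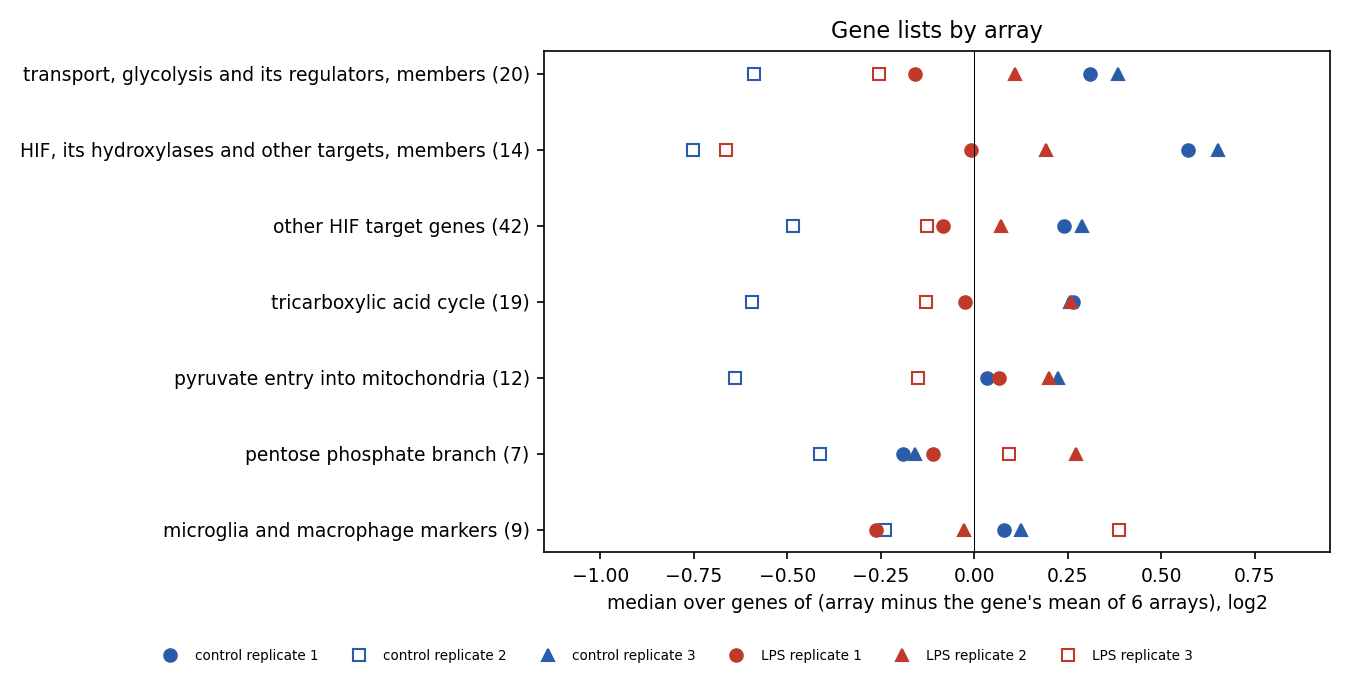
For each gene list (rows, number of genes in brackets), the median over genes of the array's value minus that gene's mean of 6 arrays, in log2 units, 1 point per array with the same symbols as in the plot of single genes. The 14 HIF genes lie at -0.75 in control replicate 2 and -0.66 in LPS replicate 3 and at 0.57 and 0.65 in control replicates 1 and 3, while microglia markers have their highest point, 0.39, in LPS replicate 3.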

How the data were processed

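RNA of 6 BV-2 samples (3 control, 3 LPS) was hybridised to Affymetrix mouse arrays, 1 colour each. The deposited values are log2 expression per row, which the authors made in Affymetrix Expression Console (named in the submitters' processing notes, per the labels); background correction and normalization were not given in the sources used here, and the values were used as deposited. Of 41345 rows, 23521 name 1 gene in the platform annotation, 1814 several and 16010 none.

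LPS was compared with control by limma 3.58.1 (lmFit and eBayes, R 4.3.3) over all rows, with Benjamini-Hochberg adjustment and a threshold of 0.05. The procedure was tested on simulated data. An array's deviation is its value minus the mean of the other 2 arrays of its group. Array number limits the precision. Genes, lists and the 2 arrays set apart were chosen with earlier results of these data known. All 34 genes are described; from each other list, genes called over all arrays were named, or else the 2 with the highest mean, with Acod1, Il1b, Nos2 and Tnf in every case as a check of the agent; Selenbp1, Cxcr4 and the array values given for Ero1a and Nos2 were chosen after their values were seen. The alternatives were other scalings, row filters, array weights, a replicate block, the mean of a gene's rows, and leaving out arrays.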

Additional observations from a re-analysis of the deposited data

How the results depend on the processing

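Over all rows, 80 were called higher and 0 lower (limma, adjusted p under 0.05). The count called higher was 132 with array weights, 7 with the replicate block and 152 without control replicate 2 and LPS replicate 3; leaving out 1 array at a time gave 15 to 76. The count called lower was 1 after centring on brighter rows and 67 without those 2 arrays, and 0 to 14 with 1 array left out. Of the 34 genes, 3 were called lower without those 2 arrays and 0 to 3 with 1 array left out, the 3 only without control replicate 2. The replicate block called 0 of the 34. The labels state no link between same-numbered arrays beyond the number. Deviations of same-numbered arrays correlated at 0.069, -0.255 and -0.222 over all rows. The value was 0.266 for control replicate 2 with LPS replicate 3 and 0.249 for control replicate 3 with LPS replicate 2. The 3 deviations of a group depend on each other, and so do these correlations. Whether any arrays shared a culture was not tested. The median of other glycolysis genes was -0.12 after centring on brighter rows, that of the pentose phosphate branch 0.16 after that and after quantile normalization, and that of oxygen-sensing genes -0.0079 without the 2 arrays (up to 0.33, without control replicate 1). Without the 2 arrays, 2 other HIF targets, Cxcr4 and Selenbp1, were called lower. The median deviation of control replicate 2 was -0.62 after quantile normalization, -1.08 after median centring and -0.91 after centring on brighter rows, and that of LPS replicate 3 -0.58 after the last. Centring on brighter rows moved the median difference of all rows from 0.03 to -0.14. No result took the opposite call. Settings with 1 gene per row have no value for Ankrd37. With 3 arrays a group, differences near the background guide are not resolved.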

Other observations

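Beyond these pathways, 125 of the 19121 brighter rows lay at least 1 log2 unit below the others of their group in both control replicate 2 and LPS replicate 3, and 75 of them name 1 gene. Rows named only for replication histone genes, which encode the histones made during DNA synthesis, were 15 of these, out of 45 such rows (33.3%, against 0.654% of brighter rows). Their median deviation was -0.91 in control replicate 2 and -0.99 in LPS replicate 3. Histone genes share sequence and symbols, so these rows are not independent of each other. Other such rows, chosen after their values were seen, were those of the immediate early genes Nr4a1 (-2.78 and -3.10) and Fos (-1.77 and -3.08), of the phosphatase gene Dusp2 (-1.91 and -1.86) and of the chemokine gene Cxcl14 (-2.23 and -2.52).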
